A study of Mus musculus with 5 samples.

Results

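The 6 Iroquois genes of the mouse, Irx1, Irx2, Irx3, Irx4, Irx5 and Irx6, were taken by name from the 37252 genes of the GENCODE vM1 annotation. RING1B peaks at these genes were read from the lists of 3 libraries of mouse embryonic fibroblasts (MEFs), 1 library per group. RING1B is the ubiquitin ligase subunit of the Polycomb Repressive Complex 1 (PRC1). A peak was assigned to a gene when it overlapped the gene body or lay within 5000 bases of the gene start.

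All 3 groups derive from MEFs of an embryo with loxP sites in the Eed gene, which encodes a core subunit of PRC2. The control cells are the parental cells with floxed, undeleted EED. The EZHIP cells stably express human EZHIP, and the H3.3 K27M cells stably express histone H3.3 with methionine in place of lysine 27, both from a lentiviral vector that carries the EF1a promoter and puromycin resistance. Whether the transduced lines are clones is not given in the sources used here. H3.3 K27R and EED deletion libraries belong to the series and were not analysed here. The control is labelled as parental cells, so a difference from it cannot be told apart from transduction and selection. EZHIP and H3.3 K27M both inhibit PRC2, the methyltransferase of histone H3 lysine 27, and the comparison asks where PRC1 is found in cells with either inhibitor. The lists held 821 control, 311 EZHIP and 286 H3.3 K27M peaks with positions alone, so depth is unknown and a missing peak means that none was called. The study describes the number and distribution of RING1B as unaltered by either inhibitor, which differs from the unequal numbers of these lists. The reason for this difference was not tested. No peak list measures the transgenes, H3K27me3 or expression, so the labels could not be checked against a marker.

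Iroquois genes encode homeodomain transcription factors of the TALE class, named for a loop extension of 3 amino acids in the homeodomain. They pattern the neural plate, heart, limb and other tissues of the embryo. In mammals the family lies in 2 clusters that arose by duplication, so that each gene has a cognate in the other cluster (Irx1 and Irx3, Irx2 and Irx5, Irx4 and Irx6). Genes for developmental transcription factors with CpG-rich starts are typical Polycomb targets in cells that do not use them.

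On the mm9 assembly, Irx1, Irx2 and Irx4 form the cluster on chromosome 13 and Irx3, Irx5 and Irx6 the cluster on chromosome 8. From the first to the last base of their genes the clusters span 1.31 Mb and 0.88 Mb. Neighbouring members start 665.1 kb (Irx1 to Irx2), 631.7 kb (Irx2 to Irx4), 556.1 kb (Irx3 to Irx5) and 316.5 kb (Irx5 to Irx6) apart. Each peak can therefore be placed at a single Irx gene.

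The sequences just before the gene starts are shown because CpG-rich DNA marks the places where Polycomb complexes are commonly found, and because these starts differ in both CpG content and RING1B peaks. Each line gives 200 bases of the NCBIM37 assembly, 5′ to 3′ in the direction of transcription, ending at the base before the annotated start. Capitals mark each CG dinucleotide.
Irx1, chr13:72101172-72101371, minus strand: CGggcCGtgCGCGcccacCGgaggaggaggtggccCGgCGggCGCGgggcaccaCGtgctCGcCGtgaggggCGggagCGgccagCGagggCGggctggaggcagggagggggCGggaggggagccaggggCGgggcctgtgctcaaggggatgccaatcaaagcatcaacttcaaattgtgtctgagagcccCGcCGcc
Irx2, chr13:72766045-72766244, plus strand: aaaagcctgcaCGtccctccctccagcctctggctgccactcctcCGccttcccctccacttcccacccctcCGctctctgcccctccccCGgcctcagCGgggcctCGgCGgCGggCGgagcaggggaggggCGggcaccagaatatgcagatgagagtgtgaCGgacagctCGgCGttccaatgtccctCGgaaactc
Irx4, chr13:73397745-73397944, plus strand: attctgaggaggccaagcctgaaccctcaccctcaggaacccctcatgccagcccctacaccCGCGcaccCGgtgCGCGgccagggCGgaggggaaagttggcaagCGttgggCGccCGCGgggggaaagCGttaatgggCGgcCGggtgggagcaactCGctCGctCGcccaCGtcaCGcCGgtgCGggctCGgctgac
Irx3, chr8:94325554-94325753, minus strand: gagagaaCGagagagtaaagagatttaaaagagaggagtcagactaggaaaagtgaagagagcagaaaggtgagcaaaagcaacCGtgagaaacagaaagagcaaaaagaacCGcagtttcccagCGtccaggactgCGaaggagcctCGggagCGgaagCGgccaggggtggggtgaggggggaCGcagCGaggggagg
Irx5, chr8:94881495-94881694, plus strand: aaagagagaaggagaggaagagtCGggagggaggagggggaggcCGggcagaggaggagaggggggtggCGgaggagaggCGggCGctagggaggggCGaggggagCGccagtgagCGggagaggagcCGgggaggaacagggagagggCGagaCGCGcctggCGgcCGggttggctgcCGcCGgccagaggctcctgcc
Irx6, chr8:95197988-95198187, plus strand: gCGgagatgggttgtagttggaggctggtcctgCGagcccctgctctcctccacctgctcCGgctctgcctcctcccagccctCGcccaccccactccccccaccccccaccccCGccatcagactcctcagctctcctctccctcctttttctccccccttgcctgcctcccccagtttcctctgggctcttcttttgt

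Irx4 had 21 CG dinucleotides in this window, Irx1 20, Irx5 16, Irx2 14, Irx3 10 and Irx6 5. Over the 22350 protein-coding genes the median was 7, with quartiles of 2 and 15. As many as at Irx4 were found in 12.7% of these windows, and as many as at Irx6 in 60.3%. The window of Irx3, which had a control peak, held fewer than that of Irx2, which had none.

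In the control list, RING1B peaks were found at Irx1, Irx3, Irx4 and Irx5, 4 of 6 members (95% exact binomial interval 22.3 to 95.7%). By the same rule, 3.81% of protein-coding genes had a control peak. In the EZHIP list, 0 of 6 members had a peak (upper bound of the exact interval 45.9%), where 1.32% of protein-coding genes had one. In the H3.3 K27M list, Irx3, Irx4 and Irx5 had a peak, 3 of 6 members (95% interval 11.8 to 88.2%), where 1.21% of protein-coding genes had one. Irx2 and Irx6 had no peak in any of the 3 lists. Intervals on shares cover counting error only, and nothing here measures the spread between replicate libraries. They assume independent draws, whereas the 6 genes are a whole family picked by name. The intervals are therefore descriptive and test no difference from the shares of all genes.

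**Figure D1:**
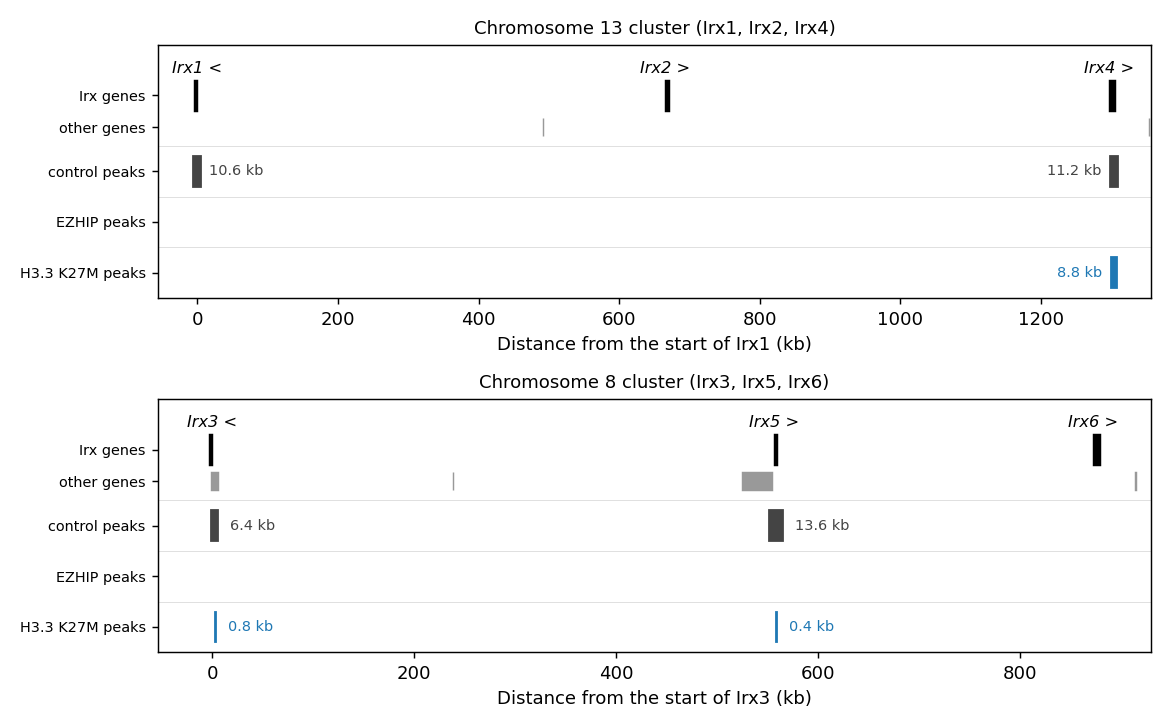
RING1B peaks along the Irx clusters. The x axis is distance in kb from the start of the first gene, rows hold Irx genes (< and > give the direction of transcription), other annotated genes and the peaks of each list, and numbers give peak widths; thin outlines keep the narrowest bars visible. The control has peaks at Irx1, Irx4, Irx3 and Irx5, the EZHIP row is empty in both clusters, and the H3.3 K27M peaks are 8.8 kb at Irx4, 0.8 kb at Irx3 and 0.4 kb at Irx5.

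The control peaks were a single broad peak per gene. They spanned 6399 bases at Irx3, 10599 bases at Irx1, 11199 bases at Irx4 and 13599 bases at Irx5, against a median of 3399 bases over the whole control list. All 4 were wider than that median, and the Irx5 peak ranked 113 of 821 by width. In the H3.3 K27M list the widths were 8799 bases at Irx4, 799 bases at Irx3 and 399 bases at Irx5. The first of these was wider than the list's median of 5199 bases, whereas the other two ranked 235 and 250 of 286.

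**Figure D2:**
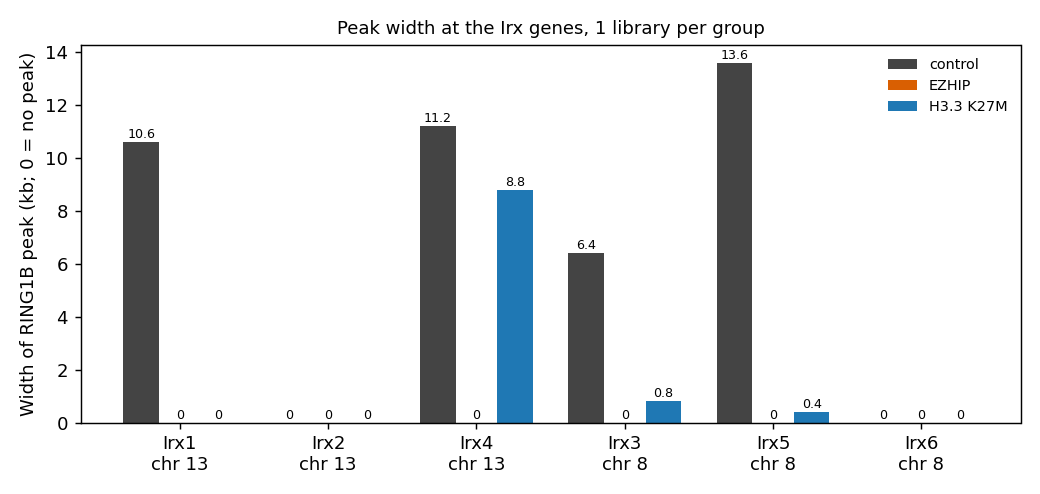
Width of the RING1B peak at each Irx gene. Bars give kb in the control, EZHIP and H3.3 K27M list (1 library each, so no error bar), and 0 stands for no peak. Irx4 is the gene at which the H3.3 K27M bar (8.8 kb) comes nearest to the control bar (11.2 kb).

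Irx1, a gene expressed in the developing lung and neural tissue, had a peak in the control and in neither transduced line. Its control peak at chromosome 13, 72095201 to 72105799, ran from 4628 bases before the gene start to 5970 bases after it and covered 100% of the gene body. The nearest peak to the gene body was 1.30 Mb away in the H3.3 K27M list, the peak at Irx4, and 5.48 Mb away in the EZHIP list. Irx1 was thus the only member with a control peak and no H3.3 K27M peak.

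Irx4, which marks the ventricular myocardium of the developing heart, kept the most. Its control peak lay at chromosome 13, 73399001 to 73410199, and its H3.3 K27M peak at 73400601 to 73409399. The H3.3 K27M peak lay inside the control peak and fell short of its edges by 1600 bases on the side of the gene start and by 800 bases on the far side. It covered 78.6% of the bases of the control peak. Neither peak reached the annotated start of Irx4. They began 1056 and 2656 bases downstream of it, in the first intron, and ran past the end of the gene by 3131 and 2331 bases. Both covered the whole coding sequence, 1545 bases.

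Irx3, a regulator of limb and neural tube patterning, had its control peak at chromosome 8, 94325001 to 94331399. Most of it (91.4%) lay upstream of the gene, and it covered 17.7% of the Irx3 body. The peak lay inside D230002A01Rik, a long noncoding RNA gene (94324314 to 94331438) on the other strand, whose start lies inside the Irx3 body, 1239 bases from the Irx3 start. The peak can therefore not be given to either gene alone. The H3.3 K27M peak at 94328801 to 94329599 lay 3248 bases upstream of the Irx3 start and within the noncoding gene. It covered 12.5% of the bases of the control peak and none of the Irx3 body.

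Irx5, the cognate of Irx2 that acts in retinal bipolar cells and in the heart, had the widest control peak of the family. It lay at chromosome 8, 94877401 to 94890999, from 4294 bases before the gene start to 9304 bases after it, and covered 100% of the gene body. It also held the start of 4933436C20Rik, 1676 bases from that of Irx5 on the other strand, a gene typed as protein-coding in GENCODE vM1 and listed by RefSeq as Crnde, a long noncoding RNA. The H3.3 K27M peak at 94884201 to 94884599 consisted of 2 bins of 200 bases, lay in coding sequence of the last exon, 2506 bases downstream of the start, and covered 2.93% of the control peak.

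No H3.3 K27M peak overlapped the start of an Irx gene, whereas 3 control peaks did. When a peak had to overlap the start, the counts were 3 control members (Irx1, Irx3 and Irx5) and 0 members for both EZHIP and H3.3 K27M. By this rule, 2.82% of protein-coding genes had a peak in the control, 0.595% in the EZHIP and 0.743% in the H3.3 K27M list, so a count of 0 among 6 genes is near the background. The lists also differ in their narrowest peak, 1199 bases for the control and 399 bases for both EZHIP and H3.3 K27M. Peaks under 1000 bases numbered 59 of 286 for H3.3 K27M, 109 of 311 for EZHIP and 0 of 821 for the control. The H3.3 K27M peaks at Irx3 and Irx5 are narrower than the minimum size that the methods of the study state for RING1B peaks, and whether the 3 lists were called with the same settings is not known. With peaks under 1000 bases left out of every list, Irx4 alone remained in the H3.3 K27M list, 1 of 6 members, and the control and EZHIP counts were 4 and 0. Of protein-coding genes, 3.81% then had a peak in the control list, 0.935% in that of EZHIP and 1.03% in that of H3.3 K27M.

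Over each cluster extended by 50000 bases on both sides, control peaks covered 21798 bases on chromosome 13 and 19998 bases on chromosome 8. EZHIP peaks covered 0 bases of both. H3.3 K27M peaks covered 8799 bases on chromosome 13 and 1198 bases on chromosome 8, which is 0.404 and 0.060 times the control. The clusters were thus covered over nearly the same length in the control and over lengths that differ in the H3.3 K27M list. The chromosome 13 value is the Irx4 peak alone, and the chromosome 8 value became 0 with peaks under 1000 bases left out.

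The presence of a peak did not follow the cognate pairs. Irx1 and Irx3 both had a control peak, but Irx5 had one and its cognate Irx2 did not, and Irx4 had one and its cognate Irx6 did not. In the H3.3 K27M list, each of the 3 pairs had a peak at a single gene: Irx3, Irx5 and Irx4. Irx2, linked to cerebellar patterning, is the middle gene of its cluster, and its nearest control peak was 627.4 kb from the gene body. Irx6, known from retinal bipolar cells, lies at the end of its cluster, 307.2 kb from its nearest control peak.

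The nearest EZHIP peak was 4.17 Mb from the body of Irx4, the closest case on chromosome 13, and 4.33 Mb from that of Irx3, the closest on chromosome 8. Both nearest peaks were 599 bases wide. Such distances were common in this list, since 42.4% of protein-coding genes lay at least as far from an EZHIP peak as Irx4, and the median distance was 3.23 Mb.

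The absence of EZHIP peaks was set against control peaks of similar width. The list held 125 control peaks of 6399 to 13599 bases, the range of the Irx peaks, which are 4 of them. Of the 125, 59 (47.2%) shared a base with EZHIP peaks. The H3.3 K27M list shared a base with 73 (58.4%). At the Irx genes the counts were 0 of 4 (upper bound of the 95% exact interval 60.2%) and 3 of 4 (95% interval 19.4 to 99.4%). With 4 peaks these intervals are too wide for any count to differ from the shares of the class, so the values only stand side by side. In this class, 45 peaks were kept in both lists, 28 in the H3.3 K27M list alone, 14 in the EZHIP list alone and 38 in neither. Irx3, Irx4 and Irx5 belong to the 28, and Irx1 to the 38. Irx3 and Irx5 belong there through peaks under 1000 bases. With such peaks left out of every list, 1 of the 4 was kept in the H3.3 K27M list.

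By gene, 29.3% of the 851 protein-coding genes with a control peak also had an EZHIP peak and 28.6% also had an H3.3 K27M peak. A peak in the H3.3 K27M list and none in the EZHIP list was found at 8.46% of the 851 genes, and the opposite at 9.17%. Irx3, Irx4 and Irx5 showed the former pattern and no Irx gene the latter.

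The part that was kept also differed within the class. Among the 73 control peaks of this width with an H3.3 K27M peak, the median share of bases covered was 58.1%, with quartiles of 37.1 and 77.3%. Irx4, at 78.6%, lay above the upper quartile, and Irx3, at 12.5%, below the lower. Irx5, at 2.93%, had the lowest share of the 73, and 7 of them were covered over less than 10%.

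**Figure D3:**
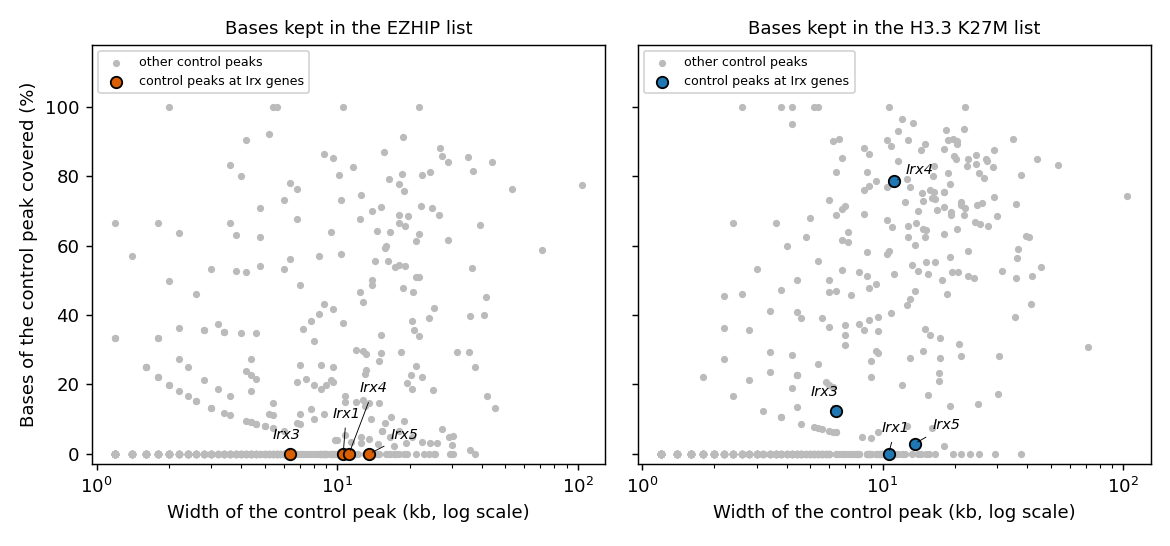
Share of each control peak covered by EZHIP (left) and H3.3 K27M (right) peaks. The x axis is the width of the control peak in kb on a log scale, the y axis the percentage of its bases covered, grey points are the other control peaks and coloured points those at Irx genes. All 4 Irx points lie at 0 in the EZHIP panel, and in the H3.3 K27M panel Irx4 lies at 78.6%, Irx3 at 12.5%, Irx5 at 2.93% and Irx1 at 0.

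The members were then compared by CpG-island-like sequence, defined as windows of 500 bases in which G and C made up 55% or more and the ratio of observed to expected CpG reached 0.65. Every Irx start lay in such an island. Within 5000 bases of the start, islands covered 4853 bases at Irx3, 4700 at Irx5, 3600 at Irx2, 2700 at Irx1, 1845 at Irx4 and 900 at Irx6. As much as at Irx3 was found at 0.0492% of protein-coding genes, as much as at Irx2 at 0.604%, and as much as at Irx6 at 46.2%. Irx2, with no peak, thus had more island sequence around its start than Irx1 and Irx4, which had control peaks. Of the 10317 protein-coding genes with at least 900 bases, 7.23% had a control peak.

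The control peaks held 2 islands at Irx1, 3 at Irx3, 3 at Irx4 and 5 at Irx5. Island sequence made up 45.6% of the Irx5, 39.1% of the Irx3, 25.5% of the Irx1 and 16.1% of the Irx4 peak, beside a median of 38.9% over the control list. The Irx4 peak left out the island of 1300 bases at the gene start. The peak that was kept over the largest share in the H3.3 K27M list was thus the one with the least island sequence of the 4.

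Within the control peaks, the bases that were kept in the H3.3 K27M list held more CG dinucleotides than the others at each of the 3 genes. The values were 10.53 per 100 bases in the kept part and 4.80 in the rest at Irx5, 5.26 and 4.59 at Irx3, and 3.32 and 2.96 at Irx4. The difference at Irx3 and Irx4 was small. Of all control peaks kept in part in the H3.3 K27M list, the kept part was the richer in 169 of 220 (76.8%). The median difference was 1.38 per 100 bases, so the direction was common in that list. For the EZHIP list the kept part was the richer in 120 of 217 (55.3%). The Irx5 difference was larger than the H3.3 K27M median, and those at Irx3 and Irx4 were smaller. Islands made up 100% of the kept part and 43.9% of the rest at Irx5, and 62.5% and 35.7% at Irx3. At Irx4 the order was the opposite, with 15.9% of the kept part and 16.7% of the rest.

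The middle 300 bases of the narrow H3.3 K27M peaks are given below, since these few bins are the parts of much wider control peaks that were called in this library. They are from NCBIM37, 5′ to 3′ in the direction of transcription of the Irx gene, with each CG dinucleotide in capitals.
Irx3, chr8:94329050-94329349, minus strand: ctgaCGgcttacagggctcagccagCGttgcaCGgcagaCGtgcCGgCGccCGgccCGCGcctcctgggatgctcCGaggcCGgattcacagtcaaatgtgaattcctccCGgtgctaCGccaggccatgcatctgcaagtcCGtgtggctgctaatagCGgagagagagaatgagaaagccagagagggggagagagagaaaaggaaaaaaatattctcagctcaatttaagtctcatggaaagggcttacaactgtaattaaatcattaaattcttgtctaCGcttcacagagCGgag
Irx5, chr8:94884250-94884549, plus strand: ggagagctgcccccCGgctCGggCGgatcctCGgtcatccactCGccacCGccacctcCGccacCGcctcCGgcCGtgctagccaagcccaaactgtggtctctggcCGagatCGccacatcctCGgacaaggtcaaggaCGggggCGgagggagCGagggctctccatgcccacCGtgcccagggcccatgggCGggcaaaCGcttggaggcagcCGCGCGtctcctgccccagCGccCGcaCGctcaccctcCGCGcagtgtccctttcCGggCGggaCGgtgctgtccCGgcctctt

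The Irx5 stretch held 31 CG dinucleotides at 72.0% G and C. The Irx3 stretch held 17 at 53.0% G and C. Of 16 words of 32 bases sampled in the Irx3 peak, 3 (18.8%) occur more than once in the genome, and of 8 words in the Irx5 peak, 0. In the 4 control peaks, from 0.368 to 2.34% of such words were repeated. The 2.34% belongs to the Irx3 control peak, whose 3 repeated words are those of the narrow peak inside it. Whether repeated sequence has a part in the narrow Irx3 peak was not tested.

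Genes other than the members were counted where they overlapped a cluster span extended by 200000 bases on each side, so that genes lying between members are included. Of 14 such genes, 2 had a control peak, 0 an EZHIP peak and 2 an H3.3 K27M peak. Among annotated genes of every type, the shares were 3.16%, 1.12% and 1.09% in the same order. The 2 genes were D230002A01Rik and 4933436C20Rik, through the peaks already described at Irx3 and Irx5. Fto, whose introns hold enhancers that act on Irx3, had no peak in any list. Neither did Rpl9-ps4, Gm10263, Gm3235, Gm3272 and U6, other genes between or beside the members.

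Other TALE homeobox genes (Meis1, Meis2, Meis3, Pbx2, Pbx3, Pbx4, Pknox1, Pknox2, Tgif1, Tgif2 and Mkx) encode cofactors of Hox proteins and related factors. None of these 11 genes had an assigned peak, 0 of 11 in each of the 3 lists. At the shares over all protein-coding genes, 3.81% in the control, 1.32% in the EZHIP and 1.21% in the H3.3 K27M list, a count of 0 is near the background and is no result about these genes. Their nearest control peak lay from 83.1 kb (Pbx2) to 14646.1 kb (Meis3) from the gene body.

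Genes outside the clusters were ordered by how close the summed widths of their assigned peaks came to those of each member, as a distance in log2(width + 200) over the 3 lists. Ptf1a and Ppp1r1b had the widths of Irx1, 10599 bases in the control and no other peak (distance 0), and Tspan31 followed at 0.03. Neurog1 came closest to Irx4, at 0.08, with a control width of 10799 bases and an H3.3 K27M width of 8399 bases, followed by Sox14 at 0.20 and Fezf1 at 0.28. The genes closest to Irx3 were Lmx1a at 0.49, Nkx2-6 at 0.49 and Duox2 at 0.50, each with 1199 bases in the H3.3 K27M list. Irx5 had the least similar partners, Tbr1 at 0.59, Bhlhe22 at 1.06 and Grrp1 at 1.06.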

How the data were processed

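RING1B ChIP-Seq was made by the authors from crosslinked, MNase-digested MEF chromatin. Per the study's methods and the submitters' processing notes, reads were aligned to mm9 with Bowtie 1.0.0 and broad peaks were called with MOSAiCS-HMM at a stated minimum size of 1000 bases, which the EZHIP and H3.3 K27M lists do not keep to. The deposited lists give chromosome, start and end in 3 columns, with no score, signal or count, and their edges fall on bins of 200 bases. Only peak positions were therefore used, and depth is unknown.

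Genes were taken from GENCODE vM1 and sequence from NCBIM37, the assembly behind mm9 (Python 3.11.15, numpy 2.4.6, pandas 2.3.3, scipy 1.17.1, numba 0.67.0, matplotlib 3.10.9). Width is the end minus the start as deposited, and positions are printed with 1 added to that start (1-based). CpG windows moved by 100 bases, and words of 32 bases were sampled every 50 bases. Overlap, CpG and word code was checked on simulated data.

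With 1 library per group no test across libraries exists and no p-value was computed. Members, gene lists and rules were chosen with earlier results of these data known. Named genes were the 6 members, TALE genes and neighbours with a peak, other genes beside the members, and for each member with a control peak the 3 protein-coding genes with the most similar widths that lie over 1000000 bases away or on another chromosome, 1 per control peak. 1 item of the planned lists is not reported here. Fto was named as well, with its values seen, because it holds enhancers of Irx3. Alternatives were other assignment distances, a common minimum width of 1000 bases, equal numbers of the widest peaks, stricter overlap, other cluster extensions, merging within 10000 bases, a fixed window around the start, and genes of every type.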

Additional observations from a re-analysis of the deposited data

How the results depend on the processing

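Under 12 alternatives, all planned, 22 values were computed again where an alternative applied, 80 times in all. A value was taken as changed when it moved by more than 1.5 times. By this limit 73 stayed and 7 did not. Many of the 73 could not move, so the tally is no measure of stability. Among them are EZHIP values of 0, the H3.3 K27M value of 0 at Irx1, and control values with peaks under 1000 bases left out. All 7 concerned the H3.3 K27M list. With peaks under 1000 bases left out, the members with an H3.3 K27M peak numbered 1, the control peaks kept in that list 1, and the covered bases of the chromosome 8 cluster, of Irx3 and of Irx5 were 0 times the control, because both peaks are narrower than that minimum. When peaks had to overlap the gene start, 0 members had an H3.3 K27M peak. With a reach of 1000 bases from the start or in the gene body, 2 members had one, Irx4 and Irx5. Irx3 was lost there, a change of exactly 1.5 times that counts among the 73. When 50% of both peaks had to be shared, 1 control peak was kept in the H3.3 K27M list, since the narrow peaks cannot meet that rule. Equal numbers of the widest peaks left the H3.3 K27M list whole by construction. The EZHIP count was 0 in every setting run, as it had to be. The nearest EZHIP peak lay 4.17 Mb from a member body, beyond the reach of every setting. No paired analysis was possible because each group has 1 library and no result comes from a test. The unknown depth limits every statement on a missing peak.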
